A study of Drosophila melanogaster with 12 samples.

Results

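The genes described here encode the structural proteins of the insect cuticle that belong to the Cpr and Tweedle families. They were taken by name, as every gene of the array whose symbol starts with Cpr followed by a digit or with Twdl, whatever its values. This gave 92 of the 13554 genes measured, of which 67 were *Cpr* genes and 25 were Tweedle genes. Expression was measured on Affymetrix Drosophila Gene 1.0 ST arrays in whole bodies of *Drosophila melanogaster* males, 5 days after eclosion. Control flies were *w1118*. Mutant flies were *dSTINGΔ*, in which imprecise excision of a transposon took away the start codon together with exon sequence at the beginning of *dSTING*, the gene for the fly homolog of the STING immune protein. Flies of both genotypes spent 4 days on regular food and were then either left on it (fed) or kept in vials with only moist paper for 24 hr (starved). Each of the 4 groups had 3 arrays, and each array held total RNA pooled from 10 males.

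The cuticle is the outer skeleton of the fly, and it also lines the foregut, the hindgut and the tracheae and forms the lens of each facet of the eye. It is built from chitin fibers set in a matrix of proteins that epidermal cells secrete, mostly around each molt and in the first days of adult life. Cpr proteins carry the Rebers and Riddiford domain, which binds chitin, whereas Tweedle proteins lack that domain and form a separate insect family. Several members are known for a more particular site or role. *Cpr66D* and *Cpr72Ec* encode proteins of the corneal lens, and an altered *TwdlD* can give larvae a short, thick body. The number and letters in a *Cpr* name give the polytene chromosome band of the gene, so genes that share them are neighbors.

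*dSTING* itself was lower in *dSTINGΔ* flies than in control flies by 3.60 on the log2 scale under fed conditions and by 2.88 under starved conditions. There was 1 mutant and 1 control stock, so the deletion and other differences between the stocks cannot be told apart. Values are log2 array signal, and a log2 difference of 1 is a doubling. Signal depends on the probes of each gene, so changes were read only between groups of the same gene. Where a gene is called dim or set against the median of its array, this places its probe signal within the array and does not rank amounts of RNA. The sources do not say whether replicates came from separate cultures, and the p-values measure only the spread between these samples. RNA came from whole bodies, where fewer cells of a type and less RNA per cell cannot be told apart. Yolk protein genes, markers of females, had group means of 2.88 to 4.98, below every array median.

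Most of the family gave a dim signal in adult males. The median of all genes lay between 5.82 and 5.88 in the 12 arrays, and 78 of the 92 members stayed below the median of their array in every array. Only 6 members were above it in all 12 arrays, namely *Cpr49Ab*, *Cpr49Ae*, *Cpr51A*, *Cpr65Au*, *Cpr67B* and *Twdlalpha*. The mean of a member over all arrays lay anywhere from 1.58 to 9.03, a span that reflects probes as well as RNA. The remaining 8 were above it in some arrays only. The table annotates 70 members as constituents of larval cuticle, a stage not sampled here. These include all 67 *Cpr* genes, so among *Cpr* genes the term does not separate dim from bright members.

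A gene was called when its adjusted p from limma, corrected over all 13554 genes by the Benjamini-Hochberg method, was under 0.05. Of the 92 members, 28 (30.4%) were called in at least 1 of 5 comparisons, where 36.0% of all genes were, and 64 in none. In fed flies 13 members (14.1%) differed between the genotypes, 7 higher and 6 lower in *dSTINGΔ*, where 12.5% of all genes were called (6.20% higher and 6.26% lower). In starved flies 21 members (22.8%) differed, 9 higher and 12 lower, where 20.0% of all genes were called (9.01% and 10.9%). In each feeding state the members' share was thus close to that of all genes, and their median log2 fold change was -0.03 in fed and 0.01 in starved flies, against -0.01 and 0.00 over all genes. Starvation changed 6 members (6.52%) in control flies, 1 up and 5 down, where 11.2% of all genes were called (5.68% up and 5.55% down). It changed 14 members (15.2%) in *dSTINGΔ* flies, 3 up and 11 down, where 16.8% were called (7.30% and 9.52%). The median over members was -0.03 in both starvation comparisons, against -0.00 and 0.02 over all genes. The genotype difference itself changed with feeding for 2 members (2.17%), *Cpr67Fb* and *TwdlO*, both with a positive interaction. Over all genes this was called for 1.33%, 0.590% positive and 0.738% negative. The 3 arrays of one group lay wholly above or below the 3 of the other for 26 members by genotype in fed flies and 31 in starved flies. The same was so for 16 members by starvation in control flies and 27 in *dSTINGΔ* flies. Over all genes these shares were 28.2%, 42.6%, 28.4% and 38.8%, close to or above those of the members.

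Genotype differences in the family ran in both directions. They were called in both feeding states with the same direction for 10 members (10.9%), where 6.72% of all genes were, a difference in shares that was not tested. Of these, *Cpr47Ea*, *Cpr49Ag*, *Cpr62Bb*, *Cpr66D* and *Cpr67Fb* were lower in *dSTINGΔ* in fed and in starved flies, and *Cpr64Aa*, *Cpr64Ad*, *Cpr66Cb*, *Cpr72Ec* and *Cpr97Eb* were higher in both. The 2 genotype comparisons share no arrays, but they share the estimate of the spread and compare the same stocks, so their calls are not independent. Another 3 members were called only in fed flies and 11 only in starved flies, and among these 14 the interaction was called for *TwdlO* alone.

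**Figure D1:**
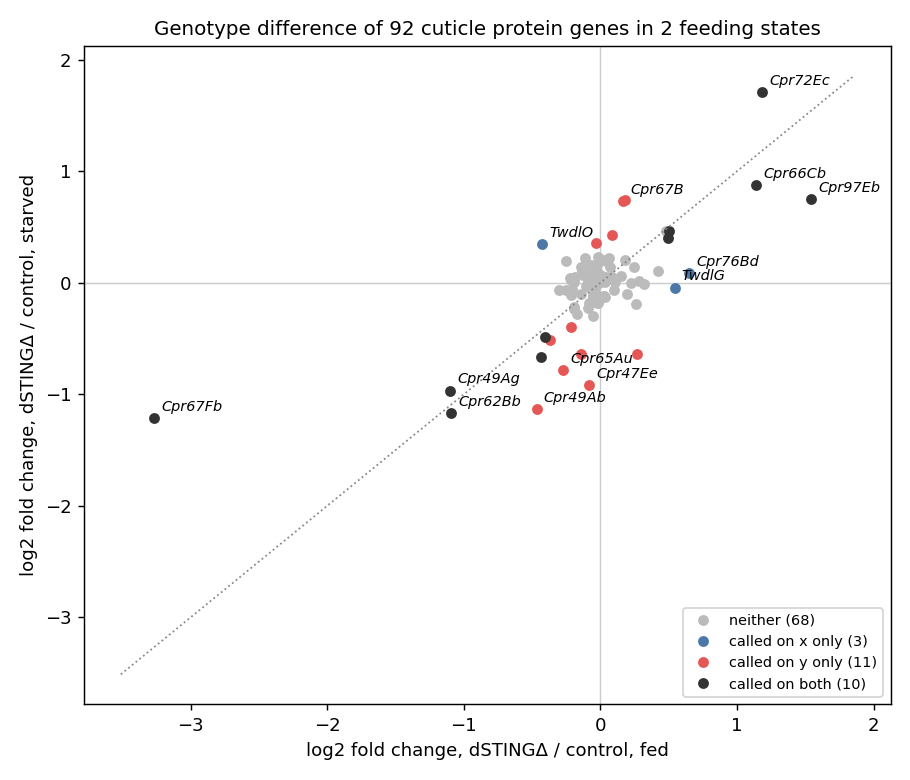
Log2 fold change of *dSTINGΔ* over control in fed flies (x axis) and in starved flies (y axis) for the 92 cuticle protein genes. Each point is a gene, the dotted line marks equal values, and colors give where the gene was called. The 10 genes called in both lie in the lower left and upper right, *Cpr67Fb* stands far to the left at -3.27 on x and -1.21 on y, and 68 genes called in neither crowd around 0.

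The 2 corneal lens genes differed between the genotypes in opposite directions. *Cpr72Ec* had log2 signals of 4.45, 4.52 and 4.69 in fed controls, 5.39, 5.79 and 6.02 in fed *dSTINGΔ*, 4.01, 4.99 and 5.00 in starved controls and 5.83, 6.47 and 6.81 in starved *dSTINGΔ*. In both feeding states all mutant arrays were above all control arrays. The log2 fold change was 1.18 in fed flies (standard error, SE, 0.28, limma adjusted p = 0.0157) and 1.71 in starved flies (SE 0.28, adjusted p = 0.000995), or 2.27-fold and 3.27-fold. *Cpr66D* lay between 5.86 and 6.03 in fed controls and between 5.39 and 5.65 in fed *dSTINGΔ*, with almost the same ranges, 5.91 to 6.0 and 5.34 to 5.56, in starved flies. It was lower in the mutant by 0.41 in fed flies (log2 fold change -0.41, SE 0.09, limma adjusted p = 0.0144) and by 0.49 in starved flies (-0.49, SE 0.09, adjusted p = 0.00302). Starvation changed the level of neither gene past the threshold.

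Most other genes of the eye that were called were higher in the mutant. In a list of 16 lens and photoreceptor genes, 4 were higher and 1 was lower in fed *dSTINGΔ*, and 2 were higher and 1 was lower in starved flies (31.2% and 18.8% called, where 12.5% and 20.0% of all genes were). The median log2 fold change of the list was 0.52 in fed and 0.38 in starved flies, against -0.01 and 0.00 over all genes. The log2 of their summed level ran from 12.8 to 13.4 in fed control arrays, 13.3 to 13.7 in fed *dSTINGΔ* arrays, 12.9 to 13.6 in starved control arrays and 13.5 to 13.7 in starved *dSTINGΔ* arrays. None of the 16 was near the bottom of the scale, with group means from 5.31 to 11.96. Of the photoreceptor genes, the rhodopsin gene *Rh5* was higher in both feeding states (1.35 and 1.42, limma adjusted p = 0.00391 and 0.00165), and the channel gene *trpl* (1.56, adjusted p = 0.00793) and the myosin gene *ninaC* (0.99, adjusted p = 0.0417) were higher in fed flies. The calls of *Rh5* and *trpl* held under all alternatives, with an adjusted p of 0.000159 to 0.0382. Of the lens genes, drosocrystallin, the major lens protein, listed as *Cry*, was higher (0.46 and 0.64), and *retinin* was the only gene of the list called lower (-1.17 in fed and -1.52 in starved flies). The part that eye tissue as a whole had in the values of *Cpr72Ec* and *Cpr66D* was not tested. The fed calls of the lens genes and of *ninaC* were each lost when certain single arrays were left out. For *Cpr72Ec* these were control fed replicate 3 and *dSTINGΔ* fed replicates 1 and 3, with an adjusted p of 0.0034 to 0.0716 over 19 alternatives. For *Cpr66D* they were control fed replicate 3 and *dSTINGΔ* fed replicate 2, with 0.00855 to 0.0626. The fed call of *retinin* was lost without control fed replicate 1 or 2, *dSTINGΔ* fed replicate 2 or 3 or *dSTINGΔ* starved replicate 3 (up to 0.131). That of *ninaC* was lost without control fed replicate 3, any *dSTINGΔ* fed array, control starved replicate 2 or any *dSTINGΔ* starved array (up to 0.142). That of *Cry* was lost without control fed replicate 1 or 3, any *dSTINGΔ* fed array, control starved replicate 2 or *dSTINGΔ* starved replicate 3 (up to 0.136).

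*Cpr67Fb* and *Cpr51A* are the only members that the table annotates with reproduction. In fed flies *Cpr67Fb* differed more between the genotypes than any other member. Its log2 signals were 8.77, 9.05 and 9.25 in fed controls, 5.64, 5.79 and 5.82 in fed *dSTINGΔ*, 7.95, 8.19 and 8.26 in starved controls and 6.45, 6.77 and 7.53 in starved *dSTINGΔ*. No group overlapped another. Control fed flies were highest and *dSTINGΔ* fed flies were lowest, near the median of all genes, and both starved groups lay in between. The log2 fold change by genotype was -3.27 in fed flies (SE 0.22, limma adjusted p = 1.38e-06), a 9.64-fold lower level in the mutant, and -1.21 in starved flies (SE 0.22, adjusted p = 0.00181), a 2.32-fold lower level.

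Starvation moved *Cpr67Fb* in opposite directions in the 2 genotypes. It fell by 0.89 on the log2 scale in control flies (SE 0.22, limma adjusted p = 0.0237) and rose by 1.17 in *dSTINGΔ* flies (SE 0.22, adjusted p = 0.00217). The difference between these changes was 2.06 (95% confidence interval 1.39 to 2.72, adjusted p = 0.00917 for the interaction), and it stayed called under all 19 alternatives tried. The fall in control flies was lost without control fed replicate 2 or 3 or control starved replicate 1 or 2, with an adjusted p of 0.002 to 0.101 over 20 alternatives. Its neighbors *Cpr67Fa1* and *Cpr67Fa2*, the other 2 members of band 67F, were called in no comparison, and the log2 fold changes of this pair ran from -0.11 to 0.06. In the reference annotation *Cpr67Fb* overlaps an antisense RNA that was not among the genes measured.

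*Cpr51A* changed with feeding and not detectably with genotype. It had log2 signals of 6.96, 7.15 and 7.31 in fed controls, 6.97, 7.19 and 7.22 in fed *dSTINGΔ*, 6.17, 6.35 and 6.45 in starved controls and 6.37, 6.59 and 6.70 in starved *dSTINGΔ*. All starved arrays were below all fed arrays, and within a feeding state the genotypes overlapped. It fell by 0.82 in control flies (SE 0.12, limma adjusted p = 0.00286) and by 0.57 in *dSTINGΔ* flies (SE 0.12, adjusted p = 0.00555), and the difference between the falls was 0.25 (95% confidence interval -0.13 to 0.62, adjusted p = 0.458). The genotype difference was -0.01 in fed flies (-0.28 to 0.25) and 0.23 in starved flies (-0.03 to 0.50). *Cpr51A* overlaps *CG30197* in the annotation. *CG30197* also fell with starvation, by 0.72 in control and by 0.40 in *dSTINGΔ* flies, but it was lower in the mutant as well (-0.79 in fed and -0.47 in starved flies, adjusted p = 0.000922 and 0.0135), and signal from the shared stretch was not separated here.

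Genes of the accessory gland, the male organ that makes seminal proteins, fell with starvation in both genotypes, whereas *Cpr67Fb* fell in control flies and rose in *dSTINGΔ* flies. Of all genes, 9.52% fell with starvation in *dSTINGΔ* and 5.55% in control flies, and 10.9% were lower by genotype in starved flies. All 7 measured genes of the list fell in *dSTINGΔ* flies and 5 of the 7 fell in control flies, with medians of -1.25 and -0.74. By genotype 3 of the 7 were lower in starved *dSTINGΔ* flies. The log2 of their summed level was 12.9 to 13.3 in fed control arrays, 12.9 to 13.3 in fed *dSTINGΔ* arrays, 12.2 to 12.6 in starved control arrays and 11.8 to 12.3 in starved *dSTINGΔ* arrays. By genotype in fed flies, their log2 fold changes ran from -0.43 to 0.17, against -3.27 for *Cpr67Fb*. The part of the gland in the values of *Cpr67Fb* and *Cpr51A* was not tested.

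**Figure D2:**
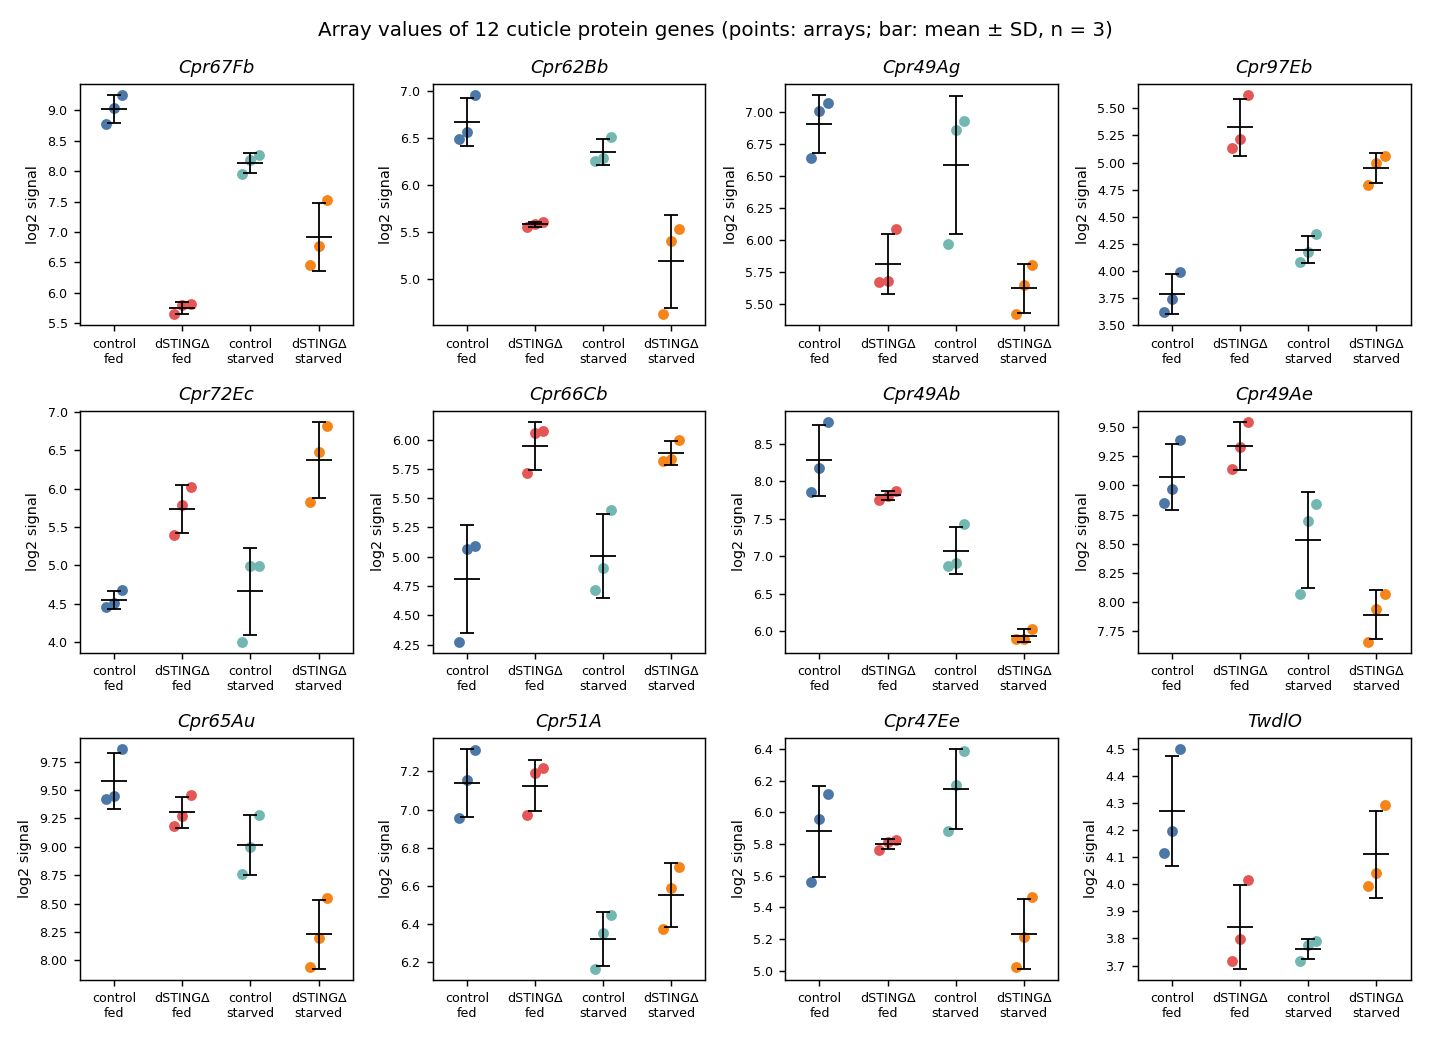
Log2 signal (y axis, a separate scale for each gene) of 12 cuticle protein genes in the 4 groups (x axis), namely the members called with a log2 fold change of at least 0.8 or in the interaction. Points are arrays, and bars are the mean ± SD of 3 arrays. *Cpr67Fb*, *Cpr62Bb* and *Cpr49Ag* sit lower in both mutant groups, *Cpr97Eb*, *Cpr72Ec* and *Cpr66Cb* sit higher, and *Cpr51A* separates by feeding alone.

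Among the remaining *Cpr* genes, for which no particular site is named here, *Cpr62Bb* and *Cpr49Ag* were lower in the mutant to a similar extent in both feeding states. *Cpr62Bb* gave 6.49, 6.57 and 6.96 in fed controls, 5.55, 5.58 and 5.61 in fed *dSTINGΔ*, 6.25, 6.29 and 6.51 in starved controls and 4.62, 5.41 and 5.53 in starved *dSTINGΔ*. Every mutant array was below every control array, whether fed or starved. The log2 fold change was -1.09 in fed flies (SE 0.20, limma adjusted p = 0.00354) and -1.16 in starved flies (SE 0.20, adjusted p = 0.00136). *Cpr49Ag* gave 6.65, 7.01 and 7.07 in fed controls, 5.67, 5.68 and 6.08 in fed *dSTINGΔ*, 5.97, 6.86 and 6.94 in starved controls and 5.42, 5.65 and 5.80 in starved *dSTINGΔ*. The genotypes did not overlap within a feeding state, although 1 control starved array came close to the mutant level. Its log2 fold change was -1.10 in fed flies (SE 0.23, limma adjusted p = 0.00761) and -0.97 in starved flies (SE 0.23, adjusted p = 0.00959). For both genes starvation passed the threshold in neither genotype, and the interaction was small against its error (-0.07, 95% confidence interval -0.68 to 0.54, for *Cpr62Bb* and 0.13, -0.56 to 0.82, for *Cpr49Ag*).

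*Cpr97Eb* and *Cpr66Cb* were higher in the mutant. *Cpr97Eb* gave 3.62, 3.74 and 3.99 in fed controls, 5.14, 5.22 and 5.63 in fed *dSTINGΔ*, 4.08, 4.17 and 4.34 in starved controls and 4.79, 5.00 and 5.06 in starved *dSTINGΔ*. All mutant arrays were above all control arrays, and all 12 were below the median of their array. The log2 fold change was 1.54 in fed flies (SE 0.14, limma adjusted p = 1.88e-05), a 2.92-fold higher level, and 0.75 in starved flies (SE 0.14, adjusted p = 0.00227). The drop from 1.54 to 0.75 missed the threshold of the interaction (-0.79, 95% confidence interval -1.22 to -0.37, adjusted p = 0.0694). *Cpr66Cb* gave 4.28, 5.06 and 5.09 in fed controls, 5.71, 6.06 and 6.07 in fed *dSTINGΔ*, 4.71, 4.90 and 5.40 in starved controls and 5.82, 5.83 and 6.0 in starved *dSTINGΔ*. Here too mutant and control arrays were apart in both feeding states. Its log2 fold change was 1.14 in fed flies (SE 0.21, limma adjusted p = 0.0044) and 0.88 in starved flies (SE 0.21, adjusted p = 0.0124), and the starved call was lost without control starved replicate 2, with an adjusted p of 0.00228 to 0.0614 over 19 alternatives.

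Starvation lowered the signal of *Cpr49Ab*, *Cpr49Ae* and *Cpr65Au*, all above the array median in every array, and each had its lowest mean in starved mutants. *Cpr49Ab* gave 7.86, 8.18 and 8.80 in fed controls, 7.76, 7.81 and 7.88 in fed *dSTINGΔ*, 6.87, 6.91 and 7.43 in starved controls and 5.89, 5.90 and 6.04 in starved *dSTINGΔ*. The fed genotypes overlapped, control starved flies were below both, and *dSTINGΔ* starved flies were below all others. It fell by 1.21 in control flies (SE 0.20, limma adjusted p = 0.0047) and by 1.87 in *dSTINGΔ* flies (SE 0.20, adjusted p = 4.2e-05), and starved mutants were lower than starved controls by 1.13 (log2 fold change -1.13, SE 0.20, adjusted p = 0.00171). The interaction was -0.66 (95% confidence interval -1.28 to -0.05, adjusted p = 0.248) and did not pass.

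*Cpr49Ae* and *Cpr65Au* were called for starvation in *dSTINGΔ* flies only. *Cpr49Ae* gave 8.85, 8.97 and 9.39 in fed controls, 9.14, 9.33 and 9.55 in fed *dSTINGΔ*, 8.07, 8.69 and 8.84 in starved controls and 7.66, 7.94 and 8.07 in starved *dSTINGΔ*. In mutants all starved arrays were more than 1 log2 unit below all fed arrays, while the control groups were separated by a narrow gap. The fall was 1.45 in *dSTINGΔ* flies (SE 0.20, limma adjusted p = 0.000266), against a log2 fold change of -0.54 in control flies (SE 0.20, adjusted p = 0.101). *Cpr65Au* gave 9.42, 9.45 and 9.86 in fed controls, 9.19, 9.28 and 9.45 in fed *dSTINGΔ*, 8.76, 9.0 and 9.28 in starved controls and 7.94, 8.20 and 8.55 in starved *dSTINGΔ*. Its group means had the same order as those of *Cpr49Ab*, but its starved control arrays overlapped the fed *dSTINGΔ* arrays. Its log2 fold change with starvation was -1.08 in *dSTINGΔ* flies (SE 0.17, limma adjusted p = 0.000796) and -0.56 in control flies (SE 0.17, adjusted p = 0.0546).

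By genotype both genes were lower in starved mutants, *Cpr65Au* by 0.78 (log2 fold change -0.78, limma adjusted p = 0.00698) and *Cpr49Ae* by 0.64 (-0.64, adjusted p = 0.04, with 1 control array at the level of the highest mutant array). Neither passed the interaction (adjusted p = 0.298 for *Cpr65Au* and 0.125 for *Cpr49Ae*). The genotype call of *Cpr49Ae* was lost without *dSTINGΔ* fed replicate 1, control starved replicate 1 or 2 or *dSTINGΔ* starved replicate 1 or 2, with an adjusted p of 0.00302 to 0.164 over 20 alternatives. *Cpr65Au* overlaps an antisense RNA that was not among the genes measured.

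Some genes of the fat body also fell with starvation in both genotypes, and some genes of muscle in *dSTINGΔ* flies. Of all genes, 5.55% fell and 5.68% rose with starvation in control flies, and 9.52% fell in *dSTINGΔ* flies. By genotype 10.9% of all genes were lower in starved flies. Of 8 fat body genes, 4 fell with starvation in each genotype and none rose, and 3 were lower by genotype in starved flies. The log2 of their summed level was 11.38 to 11.39 in fed control arrays, 11.30 to 11.59 in fed *dSTINGΔ* arrays, 10.24 to 10.71 in starved control arrays and 9.20 to 9.44 in starved *dSTINGΔ* arrays. The fed ranges thus overlapped, and the starved *dSTINGΔ* arrays were lowest. The 4 that were not called for starvation were near the bottom of the scale, with group means of 1.91 to 3.67. Of 11 muscle genes, 4 fell with starvation in *dSTINGΔ* flies, and in control flies 1 rose and 1 fell. Their summed level was 13.06 to 13.29 in starved *dSTINGΔ* arrays and 13.23 to 13.45 in all others. The part of either tissue in the values of *Cpr49Ab*, *Cpr49Ae* and *Cpr65Au* was not tested.

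*Cpr47Ee* gave 5.56, 5.96 and 6.12 in fed controls, 5.76, 5.81 and 5.82 in fed *dSTINGΔ*, 5.89, 6.17 and 6.39 in starved controls and 5.02, 5.21 and 5.46 in starved *dSTINGΔ*. Only the starved mutants stood apart, below all other arrays. In starved flies the log2 fold change by genotype was -0.92 (SE 0.16, limma adjusted p = 0.00149), against -0.08 in fed flies (SE 0.16, adjusted p = 0.796), and the interaction was -0.84 (95% confidence interval -1.32 to -0.35, adjusted p = 0.0814). Its fall with starvation in *dSTINGΔ* flies (-0.57, adjusted p = 0.0268) was lost without any 1 of the 3 *dSTINGΔ* fed arrays or *dSTINGΔ* starved replicate 1 or 2, with an adjusted p of 0.00703 to 0.119 over 19 alternatives.

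**Figure D3:**
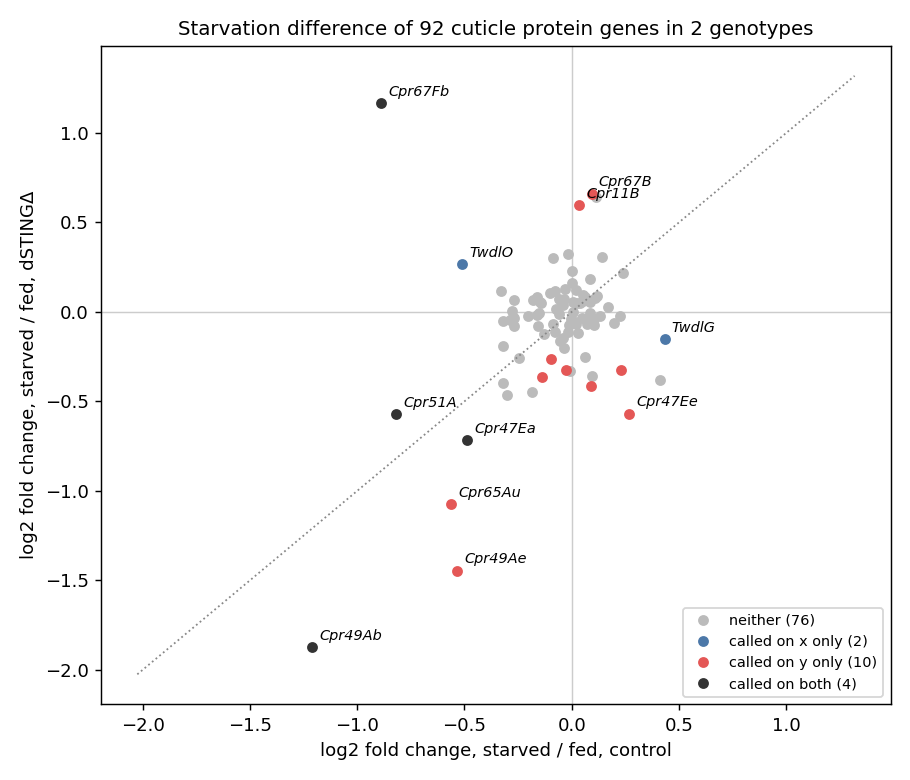
Log2 fold change of starved over fed flies in the control (x axis) and in *dSTINGΔ* (y axis) for the 92 cuticle protein genes. Each point is a gene, the dotted line marks equal values, and colors give where the gene was called. *Cpr67Fb* lies farthest out in the upper left, at -0.89 on x and 1.17 on y. *Cpr49Ab*, *Cpr49Ae* and *Cpr65Au* lie below the line with falls of 1.87, 1.45 and 1.08 in the mutant.

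The other called *Cpr* genes had smaller differences. *Cpr47Ea* was lower in all 4 comparisons, which share arrays with each other in part. It was lower by genotype in fed flies (-0.44, limma adjusted p = 0.022) and in starved flies (-0.67, adjusted p = 0.00114), and it fell with starvation in control flies (-0.49, adjusted p = 0.0176) and in *dSTINGΔ* flies (-0.72, adjusted p = 0.000587). Its level ran from 4.35 in the highest control fed array to 3.00 in the lowest *dSTINGΔ* starved array, with no overlap between fed and starved flies of a genotype or between genotypes of a feeding state. *Cpr67B*, one of the 6 genes above the array median throughout, and the dim *Cpr11B* showed the opposite pattern, with *dSTINGΔ* starved flies above all others. *Cpr67B* lay between 7.74 and 8.06 there, against 6.92 to 7.38 in the other 9 arrays, and *Cpr11B* between 4.08 and 4.40, against 3.31 to 3.80. In starved flies the log2 fold change by genotype was 0.73 for *Cpr67B* (limma adjusted p = 0.00137) and 0.74 for *Cpr11B* (adjusted p = 0.00256). With starvation both rose in *dSTINGΔ* flies, by 0.66 and 0.60 (adjusted p = 0.0025 and 0.0102), and their interactions were 0.57 and 0.56 (adjusted p = 0.125 and 0.168).

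*Cpr76Bd* was higher in *dSTINGΔ* in fed flies (5.06 to 5.16 against 4.42 to 4.50, log2 fold change 0.65, limma adjusted p = 0.00148). In starved flies its groups overlapped (0.09, adjusted p = 0.606). *Cpr100A* (-0.64, adjusted p = 0.00201), *Cpr62Ba* (-0.39, adjusted p = 0.0138) and *Cpr72Ea* (0.43, adjusted p = 0.0216) were called by genotype in starved flies. Smaller falls with starvation in *dSTINGΔ* flies were those of *Cpr100A* (-0.41), *Cpr47Ec* (-0.37), *Cpr76Bd* (-0.33) and *Cpr49Aa* (-0.26), the last of these a gene with a whole range of 3.16 to 3.55.

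Some of these smaller calls were lost without 1 array, and those not listed here were kept whichever array was left out. By genotype in starved flies this held for *Cpr62Ba* (without control starved replicate 1 or *dSTINGΔ* starved replicate 1, up to an adjusted p of 0.0605) and *Cpr72Ea* (without control starved replicate 1 or any *dSTINGΔ* starved array, up to 0.0929). In fed flies it held for *Cpr47Ea* (without control fed replicate 3 or *dSTINGΔ* fed replicate 3, up to 0.103). For starvation in control flies it held for *Cpr47Ea* (without control fed replicate 3 or control starved replicate 1, up to 0.0646). For starvation in *dSTINGΔ* flies it held for *Cpr47Ec* (without *dSTINGΔ* starved replicate 1, 0.0611), *Cpr100A* (without *dSTINGΔ* fed replicate 1 or 3 or *dSTINGΔ* starved replicate 1 or 2, up to 0.125) and *Cpr49Aa* (without *dSTINGΔ* fed replicate 1 or 3, control starved replicate 1 or any *dSTINGΔ* starved array, up to 0.142). *Cpr76Bd* lost that call without any 1 of the 12 arrays other than control fed replicates 1 and 3 and *dSTINGΔ* starved replicate 1 (up to 0.191), and its log2 fold change shrank to -0.20 without *dSTINGΔ* starved replicate 2.

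Genes of one chromosome band did not move as a block. Band 64A was the most uniform, with 4 measured members. Of all genes, 6.20% were called higher in fed *dSTINGΔ* flies and 9.01% in starved ones. *Cpr64Aa* (0.49, limma adjusted p = 0.0111) and *Cpr64Ad* (0.50, adjusted p = 0.00522) were higher in fed *dSTINGΔ*, and *Cpr64Aa* (0.40), *Cpr64Ad* (0.47) and *Cpr64Ac* (0.36, adjusted p = 0.0371) in starved flies. All 3 were dim, with *Cpr64Ad* between 2.54 and 2.78 in control arrays and between 2.91 and 3.28 in mutant arrays. They lie within the span of *CG43367*, which was itself higher in the mutant (0.89 in fed and 0.59 in starved flies, adjusted p = 0.000556 and 0.0049), and signal from the 2 sources cannot be told apart at the gene level. The starved calls were lost without control starved replicate 2 or 3 or *dSTINGΔ* starved replicate 1 or 2 for *Cpr64Aa* (up to 0.0772) and without control fed replicate 2, *dSTINGΔ* fed replicate 3, any control starved array or *dSTINGΔ* starved replicate 1 or 2 for *Cpr64Ac* (up to 0.17). Band 49A, with 8 members, held 1 member lower by genotype in fed flies and 3 in starved flies. The other 5 of the 8 were not called in starved flies. Of all genes, 6.26% and 10.9% were called lower by genotype in fed and starved flies. Of the 7 members of band 47E, 2 were lower by genotype in starved flies and 3 fell with starvation in *dSTINGΔ* flies. The shares of all genes called lower in these comparisons were 10.9% and 9.52%, and no band was tested against such shares. In all, 18 of the 92 members overlap another annotated gene, among them 9 of the 28 called members. The measured partners of *Cpr11B*, *Cpr47Ea* and *TwdlT* were called in no comparison, with adjusted p-values of at least 0.0610.

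**Figure D4:**
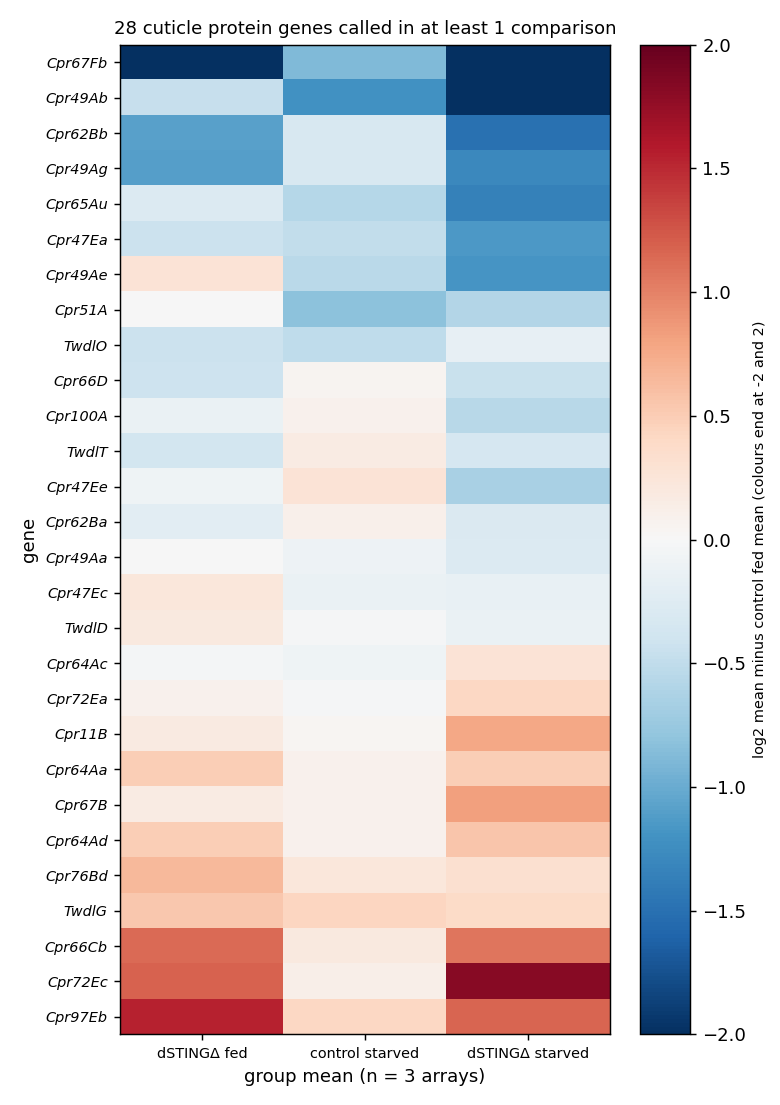
Group means of the 28 called cuticle protein genes (y axis), each shown as the log2 difference from the control fed mean, for *dSTINGΔ* fed, control starved and *dSTINGΔ* starved flies (x axis, 3 arrays each). Blue is lower and red is higher, and colors end at -2 and 2. The *dSTINGΔ* starved column holds the deepest colors for most genes. Several genes, among them *Cpr97Eb*, *Cpr67Fb*, *Cpr62Bb* and *Cpr72Ec*, differ more from control fed in the *dSTINGΔ* fed column than in the control starved column.

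Of the 25 Tweedle genes, 4 (16.0%) were called in at least 1 comparison, where 35.8% of the *Cpr* genes and 36.0% of all genes were. In fed flies 2 (8.0%) were called by genotype, *TwdlG* higher and *TwdlO* lower, where 16.4% of the *Cpr* genes and 12.5% of all genes were. In starved flies 1 (4.0%) was, *TwdlT* lower, where 29.9% of the *Cpr* genes and 20.0% of all genes were, and the difference between the families was not tested. *TwdlO* gave 4.12, 4.20 and 4.50 in fed controls, 3.72, 3.80 and 4.02 in fed *dSTINGΔ*, 3.72, 3.78 and 3.79 in starved controls and 4.00, 4.04 and 4.29 in starved *dSTINGΔ*. The mutant was below the control in fed flies and above it in starved flies, with no overlap in either state, on a narrow scale and below the array median throughout. Its log2 fold change by genotype was -0.43 in fed flies (SE 0.12, limma adjusted p = 0.0344) and 0.35 in starved flies (SE 0.12, adjusted p = 0.0574), and the interaction was 0.78 (95% confidence interval 0.41 to 1.15, adjusted p = 0.046). In control flies it fell with starvation (-0.51, adjusted p = 0.0202), and in *dSTINGΔ* flies its log2 fold change was 0.27 (adjusted p = 0.155). The interaction of *TwdlO* was lost without each of 10 of the 12 arrays, all but control fed replicates 1 and 3, with an adjusted p of 0.00752 to 0.129 over 18 alternatives. Its fed call was lost without control fed replicate 1 or 2 or *dSTINGΔ* fed replicate 2 or 3 (up to 0.117), and its starvation call without control starved replicate 1 or 2 (up to 0.0714).

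*TwdlG* lay between 4.04 and 4.19 in fed controls and between 4.41 and 4.85 in all others. It was higher in fed *dSTINGΔ* (0.54, limma adjusted p = 0.00709) and rose with starvation in control flies (0.43, adjusted p = 0.0284). The latter call was lost without control fed replicate 3 or control starved replicate 1 or 2 (up to 0.121). *TwdlT* was lower in starved mutants (-0.51, limma adjusted p = 0.0288), with 5.49 to 5.63 against 5.82 to 6.49 in controls, but without control starved replicate 2 its log2 fold change was -0.30 (adjusted p = 0.09), and the call was also lost without any 1 of the *dSTINGΔ* starved arrays (range 0.014 to 0.0933 over 19 alternatives). *TwdlD* fell with starvation in *dSTINGΔ* flies (-0.33, limma adjusted p = 0.026), from 2.65 to 2.95 down to 2.39 to 2.56, and this call was lost without *dSTINGΔ* fed replicate 1 or 3 or *dSTINGΔ* starved replicate 1 or 3 (up to 0.118). *Twdlalpha*, the Tweedle gene above the array median in all arrays, named here after its values were seen, stayed between 6.64 and 7.22 in all 12 arrays and was called in no comparison. The other 20 Tweedle genes were not called either, and the log2 fold changes of these 21 genes lay between -0.36 and 0.31 in the 4 comparisons.

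The 64 members called in none of the comparisons were 43 *Cpr* and 21 Tweedle genes. Their log2 fold changes ran from -0.47 to 0.48, and 63 of them were below the median in every array. The median standard error of a member's log2 fold change was 0.12 within a genotype or feeding state, and differences of the size of the smallest calls, such as -0.26 for *Cpr49Aa*, were at the edge of what 3 arrays per group can show.

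Genes that work beside these proteins were followed in 4 lists. The first held 35 other measured cuticle proteins, set apart from the 92 members by gene symbol and not sorted by protein family. Of these, 3 were higher and 2 lower by genotype in fed flies, and the same numbers held in starved flies (14.3% called in each state, where 12.5% and 20.0% of all genes were). *Pcp*, a pupal cuticle protein, had the clearest difference of that list. Its mean was 3.49 ± 0.17 in fed control arrays, 3.72 ± 0.38 in fed *dSTINGΔ* arrays, 3.77 ± 0.06 in starved control arrays and 5.53 ± 0.17 in starved *dSTINGΔ* (SD, n = 3 arrays). Only starved mutants were high, and the interaction was called (1.54, SE 0.23, limma adjusted p = 0.00917). *Pcp* lies within the span of a larger gene in the annotation. *Acp65Aa*, an adult cuticle protein, was higher in the mutant in fed (0.53, adjusted p = 0.0264) and starved flies (0.81, adjusted p = 0.00155), and the larval cuticle gene *Lcp65Ag2* was lower in fed flies (-0.64, adjusted p = 0.0207). The fed call of *Acp65Aa* was lost without control fed replicate 2 or *dSTINGΔ* fed replicate 2 or 3 (up to 0.114), and that of *Lcp65Ag2* without control fed replicate 2 or 3 or *dSTINGΔ* fed replicate 1 or 3 (up to 0.0782).

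Of 40 genes of chitin synthesis, binding and turnover, 3 were higher and 5 lower by genotype in fed flies, and 5 higher and 3 lower in starved flies, or 20.0% called in each state against the same 12.5% and 20.0% of all genes. The chitinase-family gene *Cht9* was higher in the mutant in both states, with means of 5.87 ± 0.42 and 7.0 ± 0.15 in control and *dSTINGΔ* fed flies and 5.17 ± 0.06 and 6.62 ± 0.14 in starved flies (SD, n = 3 arrays). Its log2 fold change was 1.14 in fed flies (limma adjusted p = 0.000928) and 1.45 in starved flies (adjusted p = 8.74e-05). The chitin deacetylase *Cda9* was higher too (0.88 and 0.80, adjusted p = 0.00062 and 0.000658), and the chitinase-like imaginal disc growth factor gene *CG5210* (*Idgf6*) was lower (-0.44 and -0.64, adjusted p = 0.00333 and 0.000144). With starvation, 5 of the 40 fell and 1 rose in control flies, and 3 fell and 1 rose in *dSTINGΔ* flies.

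Genes of cuticle tanning and pigmentation moved in 1 direction wherever they were called. Of 26 measured, 2 were lower by genotype in fed flies and 6 in starved flies, and 4 fell with starvation in control flies and 7 in *dSTINGΔ* flies. These were 7.69%, 23.1%, 15.4% and 26.9% of the list, where 6.26%, 10.9%, 5.55% and 9.52% of all genes were called lower in the same comparisons. The median of the list was -0.10 and -0.09 by genotype in fed and starved flies and -0.10 and -0.04 with starvation in control and *dSTINGΔ* flies, against -0.01, 0.00, -0.00 and 0.02 over all genes. In starved flies the 3 smallest p-values by genotype were those of *yellow-e* (-1.40, limma adjusted p = 1.82e-05), *black* (-0.83, adjusted p = 0.000126), which makes the beta-alanine used in tanning, and *pale* (-1.11, adjusted p = 0.0018), the tyrosine hydroxylase at the start of the catecholamine pathway. In fed flies *yellow-d* (-0.80, adjusted p = 0.00196) and *Dat* (-0.36, adjusted p = 0.0377) were lower, and 9 of the 12 arrays, all but control fed replicate 2, control starved replicate 3 and *dSTINGΔ* starved replicate 2, could not be left out without losing the call of *Dat* (up to 0.145 over all alternatives). The interaction was called for *yellow-e* (-1.10, adjusted p = 0.0137), whose genotype difference was thus larger in starved flies, and this call held under all 18 alternatives (up to 0.0472).

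Among 22 regulators of cuticle genes, 2 were higher by genotype in fed flies, the ecdysone-response genes *Eip78C* (0.41, limma adjusted p = 0.0179) and *Hr46* (0.37, adjusted p = 0.0461), or 9.09% of the list. In starved flies *Eip74EF* (0.44, adjusted p = 0.0156) and *vrille* (0.41, adjusted p = 0.0213) were higher and *Clock* was lower (-0.44, adjusted p = 0.00315), or 13.6%. Both shares were below those of all genes, 12.5% and 20.0%. The call of *Eip78C* was lost without control fed replicate 2 or 3 or *dSTINGΔ* fed replicate 1 or 3, and that of *Hr46* without any array but control fed replicate 1 (adjusted p up to 0.0726 and 0.177 over all alternatives). Those of *Eip74EF* and *vrille* were lost without control starved replicate 3 or *dSTINGΔ* starved replicate 2, and for *vrille* also without control starved replicate 2 (up to 0.059 and 0.101). With starvation 4 of the 22 (18.2%) rose in control flies and 3 (13.6%) in *dSTINGΔ* flies, where 5.68% and 7.30% of all genes rose.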

How the data were processed

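Arrays had been normalized with robust multi-array averaging (affy 1.48.0, R 3.2.0 per the labels) over Entrez gene probe sets, and the table deposited by the authors holds a log2 value for each gene in each array, which already is background corrected and quantile normalized. The log2 values of the sample records, deposited by the authors, differ from the table by at most 0.005 and were used where a replicate number was needed. The fold changes, t, p and FDR columns of the authors' own comparisons were not used.

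Values were fitted with limma 3.58.1 in R 4.3.3, with 1 mean per group over all 12 arrays (8 residual and 4.5 prior degrees of freedom), and p-values were adjusted by the Benjamini-Hochberg method over all 13554 genes. Comparisons were genotype in each feeding state, starvation in each genotype, and the interaction. Fold changes are differences of mean log2 values.

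The members and gene lists were chosen with earlier results of these data known. Every called member is named, those called with a log2 fold change of at least 0.8 or in the interaction with the value in every array. From each related list up to 3 called genes with the smallest p-values in either genotype comparison were eligible, and the lens and photoreceptor genes, *CG30197*, *CG43367*, *Cpr67Fa1* and *Cpr67Fa2* were added after their values were seen. *Cry*, *Hr46* and *CG5210* are the symbols of the table.

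Gene names and overlaps came from the RefSeq table of the Release 6 assembly, in which all 92 members were found. Of 12 lists written, the 4 of related genes and those of eye, accessory gland, fat body and muscle are described. The shares of all genes called in the 4 comparisons, in the order given next, were 12.5%, 20.0%, 11.2% and 16.8%. By genotype in fed and starved flies and by starvation in control and *dSTINGΔ* flies, calls were 3, 2, 2 and 4 of 11 for muscle, 1, 3, 4 and 4 of 8 for fat body, 2, 2, 0 and 1 of 13 for testis, 1, 2, 1 and 3 of 8 for oenocytes, 0, 1, 0 and 0 of 3 for yolk proteins and 0, 0, 0 and 1 of 3 for hindgut and foregut. The alternatives were only the 6 arrays compared, the replicate number as a block, a robust fit with a trend, array quality weights, median centring, a low signal filter, the sample record values, a fold over 1.4 and each array left out. The 3 arrays per group limit the precision.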

Additional observations from a re-analysis of the deposited data

Results flagged for a closer look

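For 2 of the 92 cuticle protein genes the test of the difference itself found that the effect of starvation differed between control and *dSTINGΔ* flies, which is the same as a genotype effect that differed between fed and starved flies. *Cpr67Fb* had the larger difference, 2.06 on the log2 scale (adjusted p = 0.00917 from limma). It fell in control flies in which it was high when fed, and rose in *dSTINGΔ* flies in which it was low when fed, and no 2 of the 4 groups overlapped. *TwdlO* had a difference of 0.78 (adjusted p = 0.046 from limma, 0.00752 to 0.129 over 18 alternatives) on a signal between 3.72 and 4.50, near the limit of the test.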

How the results depend on the processing

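No call of a member changed direction under any alternative. Restricting the test to the 6777 genes with the higher mean signal left 3 of the 13 fed and 7 of the 21 starved genotype calls, 6 of the 14 starvation calls in *dSTINGΔ* and 1 interaction, as most members were then not tested. Array quality weights, which gave the control fed arrays weights of 0.324, 3.87 and 0.334, raised the starvation calls in control flies from 6 to 17 and the interactions from 2 to 13. The 6 arrays alone gave 3 starvation calls in control flies, and a fold over 1.4 left 9 in *dSTINGΔ*. Fitted on the 6 arrays compared, the calls lost were those of *Cpr64Aa*, *Cpr66D* and *TwdlO* by genotype in fed flies, *TwdlT* in starved flies, *Cpr47Ea*, *TwdlO* and *TwdlG* for starvation in control flies, and *Cpr49Aa* and *Cpr76Bd* in *dSTINGΔ*. Median centring lost *Cpr49Ae* by genotype in starved flies and *Cpr49Aa*, *Cpr76Bd* and *TwdlD* for starvation in *dSTINGΔ*, and a trended, robust fit lost *Cpr49Aa* and *Cpr76Bd* there. Leaving out each array gave 11 to 14 genotype calls in fed and 15 to 23 in starved flies, 2 to 9 starvation calls in control flies (2 without control starved replicate 1, 3 without control starved replicate 2), 9 to 15 in *dSTINGΔ* (9 without *dSTINGΔ* fed replicate 1 or 3 or *dSTINGΔ* starved replicate 1) and 1 to 5 interactions (5 without control fed replicate 1). Of the calls, 9 of 13, 14 of 21, 2 of 6, 8 of 14 and 1 of 2 were kept whichever array was left out.

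Replicate numbers did not pair the arrays. Deviations of same-numbered arrays correlated with a median of -4e-04 (18 pairs, -0.451 to 0.37) and of others with -0.0178 (36 pairs). With the replicate number as a block the counts were 13, 20, 7, 11 and 1, in the order of the calls above. The block lost *Cpr49Ae* in starved flies, *Cpr100A*, *Cpr49Aa* and *Cpr76Bd* in *dSTINGΔ* and the interaction of *TwdlO*.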
